A study of Mus musculus with 4 samples.

Results

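T and NK lymphocytes were a rare population of the postnatal mouse incisor: 71 of the 11310 cells that passed the quality filters, out of 20502 deposited barcodes, were chosen by their transcripts. A cell was taken as a member when at least 3 of 10 lymphocyte genes (Cd3e, Cd3d, Cd3g, Trbc2, Trac, Nkg7, Il7r, Gzma, Cd8a and Lck) were detected. It also had to have 0 unique molecular identifiers (UMIs, each standing for 1 captured RNA molecule) of Cd79a, Epcam and Pecam1 and fewer than 10 UMIs of C1qa, C1qb and C1qc together. Cells passed the filters with at least 1000 detected genes, at most 10% mitochondrial UMIs and at most 3% hemoglobin UMIs. Since these genes chose the cells, their values are given as a description, with no test.

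The cells came from the proximal tissue of lower incisors of mice aged 15 days, dissociated and sequenced by 10x Genomics 3′ droplet chemistry. WT mice were compared with Din-KO mice, which carry a germline deletion of 4930453N24Rik (Din), a gene the study describes in tooth stem cells, with 2 libraries per genotype. The Din-KO allele is a conventional one with a LacZ reporter, made from a gene-trap clone by Cre in the germline, so the deletion is not limited to dental cells. The number of mice, their strain and their sex are not given for each library in the sources used here, so p-values measure only the spread between these libraries. WT replicates 1 and 2 held 3903 and 1560 passing cells, with 50423655 and 32198098 UMIs in all barcodes, and Din-KO replicates 1 and 2 held 4575 and 1272 cells, with 54348039 and 33076212 UMIs. The total over the members was far lower, at 20260 and 69954 UMIs in WT replicates 1 and 2 and 304029 and 85729 in Din-KO replicates 1 and 2.

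T cells recognise antigen through a receptor of paired α and β or γ and δ chains, which signals through the CD3 complex and the kinase Lck. NK cells lack a rearranged receptor and instead read MHC class I and stress ligands through activating and inhibitory receptors, many of them of the Klr and Ncr families. Both kill target cells with perforin and granzymes and secrete cytokines and chemokines such as IFN-γ and CCL5. In barrier and oral tissues γδ T cells, NK cells and innate lymphoid cells are known as resident lymphocytes. NK cells can also contain CD3 transcripts, so a CD3 UMI alone does not mark a T cell.

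Of the 71 members, 69 had a UMI of Ptprc (CD45, the surface phosphatase of blood cells). Lck was detected in 4 of 4 members of WT replicate 1, 7 of 10 of WT replicate 2, 32 of 43 of Din-KO replicate 1 and 10 of 14 of Din-KO replicate 2. The CD3 subunit gene Cd3g was detected in 2, 8, 38 and 10 of them in the same order, Cd3d in 3, 5, 31 and 7, and Cd3e in 2, 3, 26 and 4. The receptor constant genes followed with Trbc2 in 2, 7, 34 and 10 members and Trac in 2, 4, 21 and 4. Nkg7, a protein of cytotoxic granules, was detected in 3, 8, 29 and 12 members and the protease Gzma in 2, 5, 17 and 8. The IL-7 receptor gene Il7r was detected in 2, 5, 18 and 4 members, and Cd8a in 0, 3, 6 and 1. All 10 genes were thus found in members of both genotypes, Cd8a in the fewest.

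At the threshold, 14 members had exactly 3 of the 10 genes, and 13 of these had a Ptprc UMI. Just outside it, 20 barcodes had exactly 2 of the genes, and 11 of them had a Ptprc UMI. Median depth was 4568 UMIs per member in WT replicate 1, 7419 in WT replicate 2, 5083 and 5393 in the Din-KO replicates. No member shared its barcode with another library.

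The 20 genes outside the rule with the largest ratio of members to all other passing cells were nearly all lymphocyte genes. The first was Ncr1, the activating NK receptor NKp46, at 247, 457, 329 and 607 CPM (counts scaled to 1000000 UMIs summed over the members of a library) in WT replicates 1 and 2 and Din-KO replicates 1 and 2. Its mean over the other passing cells was 0.256 CPM. Il2rb, the β chain of the IL-2 and IL-15 receptors, stood at 296, 686, 319 and 607 CPM, and Klrd1 (CD94), which pairs with NKG2 receptors, at 1185, 615, 490 and 735. In neither gene were the 2 genotypes apart. The chemokine Ccl5, which draws in T cells, NK cells and monocytes, had 10908, 13595, 6082 and 19223 CPM, with a single member of Din-KO replicate 2 carrying 503 UMIs. The others of the 20 were the T-cell receptor gene Trbc1, the kinase Txk, the adaptors Skap1, Sh2d1a and Sh2d2a, the phosphatase Ptpn22, Cd2, Cd7, Ms4a4b, Gimap3, Ctsw, Klrb1f, Klrk1, AW112010 and both chains of the IL-18 receptor, Il18r1 and Il18rap. These ratios describe the chosen cells and were not tested.

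Markers of other cell types were also present in members. In 14 members 3 or more markers of another type were found, 1 of WT replicate 1, 3 of WT replicate 2, 8 of Din-KO replicate 1 and 2 of Din-KO replicate 2. In 12 of the 14 these included mesenchyme genes. The 12 mesenchyme markers summed to 296 CPM in WT replicate 1, 500.3 in WT replicate 2, 2214 and 1073 in Din-KO replicates 1 and 2, with Col1a1 the most abundant in each. These UMIs sat in few cells, with 644 of 673 in 8 members of Din-KO replicate 1 and 66 of 92 in 2 members of Din-KO replicate 2. Without the 14 members the list summed to 237 and 506 CPM in WT and 135 and 395 in Din-KO, and the genotypes overlapped. Col1a1, a collagen of dentin and bone, was detected in 1 of 4, 8 of 10, 15 of 43 and 7 of 14 members, and in neutrophils, which do not make it, in 22 of 38, 55 of 72, 9 of 26 and 30 of 42. The enamel matrix gene Amelx was detected in all 10 members of WT replicate 2 and 13 of 14 of Din-KO replicate 2, and in 72 of 72 and 39 of 42 neutrophils of those libraries. Free RNA was not removed, and no doublet caller was run.

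The B-cell genes Ms4a1 and Pax5 and the macrophage genes Csf1r, Cd68 and Adgre1 had 0 UMIs in all 71 members. Other genes of these lists were present, with 20 UMIs of Ebf1 and 22 of Lyz2 over all members. In 2 members 3 or more of 9 macrophage markers were found. The B-cell list summed to 247, 71.5, 161 and 93.3 CPM, with Ighm the most abundant in every library. The macrophage and monocyte list summed to 494, 400.3, 372 and 349.9 CPM, led by Apoe in both WT libraries and by Ccr2 in the others. One member of WT replicate 1 carried 69 UMIs of the basophil protease Mcpt8 together with Cpa3, Gata2, Fcer1a and Ms4a2. Mast cell and basophil markers therefore summed to 4689 CPM in WT replicate 1, against 71.5, 69.1 and 128 CPM in the other 3 libraries. As WT replicate 1 has 4 members in all, this cell is a large share of its RNA. Xist without any Y-linked transcript was found in 4, 8, 26 and 8 members of the libraries, and Y-linked transcripts without Xist in 0, 0, 4 and 6. Both Din-KO libraries thus held cells of male and female mice, while no WT member carried Y-linked RNA, so sex and genotype were mixed in the full set. Over members with Xist and no Y-linked UMI, present in all 4 libraries, edgeR also called 0 genes (10 higher and 6 lower at an unadjusted p under 0.05).

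T and NK lymphocytes made up a larger share of passing cells in both Din-KO libraries than in both WT libraries. They were 4 of 3903 cells in WT replicate 1, which is 0.102% (exact Clopper-Pearson 95% interval 0.0279 to 0.262%), and 10 of 1560 in WT replicate 2, 0.641% (0.308 to 1.18%). In Din-KO they were 43 of 4575 cells in replicate 1, 0.940% (0.681 to 1.26%), and 14 of 1272 in replicate 2, 1.10% (0.603 to 1.84%). The intervals cover counting error only, and that of WT replicate 2 overlapped those of both Din-KO libraries. The mean share was 0.372% ± 0.381 (SD, n = 2) in WT and 1.02% ± 0.114 (SD, n = 2) in Din-KO, a difference of 0.649 percentage points with a two-sided exact permutation p of 0.333, the smallest that 2 against 2 libraries allow.

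**Figure D1:**
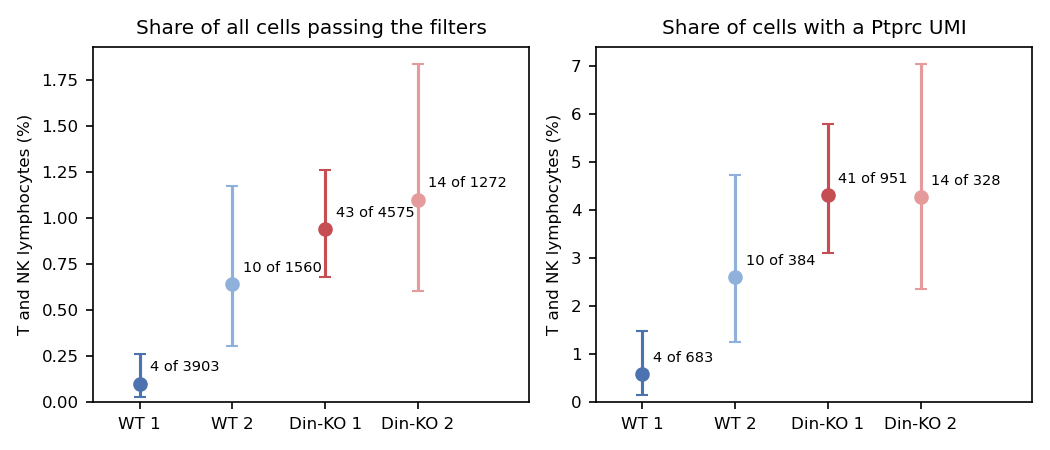
Share of T and NK lymphocytes (y axis, percent) in each of the 4 libraries, over all passing cells in 1 panel and over cells with a Ptprc UMI in the other, with exact 95% binomial intervals as bars and cell counts beside the points. Over all passing cells both Din-KO points (0.940 and 1.10%) lie above both WT points (0.102 and 0.641%), and the interval of WT replicate 2 overlaps both Din-KO intervals.

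Taken over cells with a Ptprc UMI, which leaves out most dental cells, the members were 4 of 683 in WT replicate 1, 10 of 384 in WT replicate 2, 41 of 951 in Din-KO replicate 1 and 14 of 328 in Din-KO replicate 2. These are 0.586%, 2.60%, 4.31% and 4.27%, and the order of the genotypes was the same as over all cells. The other leukocytes differed more with replicate number than with genotype. B cells (Cd79a with Cd79b or Ms4a1) made up 5.20% and 13.1% of cells in WT replicates 1 and 2 and 2.54% and 9.59% in Din-KO replicates 1 and 2. Neutrophils (at least 50 UMIs of S100a8 and S100a9) made up 0.974%, 4.62%, 0.568% and 3.30%, and macrophages (at least 10 C1q UMIs) 13.0%, 7.56%, 17.2% and 6.68%. In both genotypes B cells and neutrophils were higher, and macrophages lower, in replicate 2. Within each replicate number, the Din-KO library held smaller shares of B cells and neutrophils. Over all passing cells the T and NK share was also higher in replicate 2 of each genotype, but over Ptprc cells this held in WT alone.

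The members fell along a range between T-cell and NK-cell transcripts. At least 1 CD3 gene was detected in 59 of the 71, and all 3 in 34. Of 10 NK genes (Ncr1, Klrb1c, Klre1, Klrk1, Klrd1, Klrc1, Eomes, Klra4, Klra7 and Klra8), 2 or more were detected in 41 members, namely 4 of 4, 5 of 10, 23 of 43 and 9 of 14. Of these 41 members, 31 also had a CD3 UMI, and all 10 without one carried Ncr1. Fewer than 2 NK genes were detected in 30 members, 0, 5, 20 and 5 in the libraries, and 28 of those had a CD3 UMI. The composition thus overlapped between genotypes, and WT replicate 1 held no member with fewer than 2 NK genes. Median depth was 6616 UMIs in members with 2 or more NK genes and 4942 in the others, so deeper cells had more chance to reach 2.

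**Figure D2:**
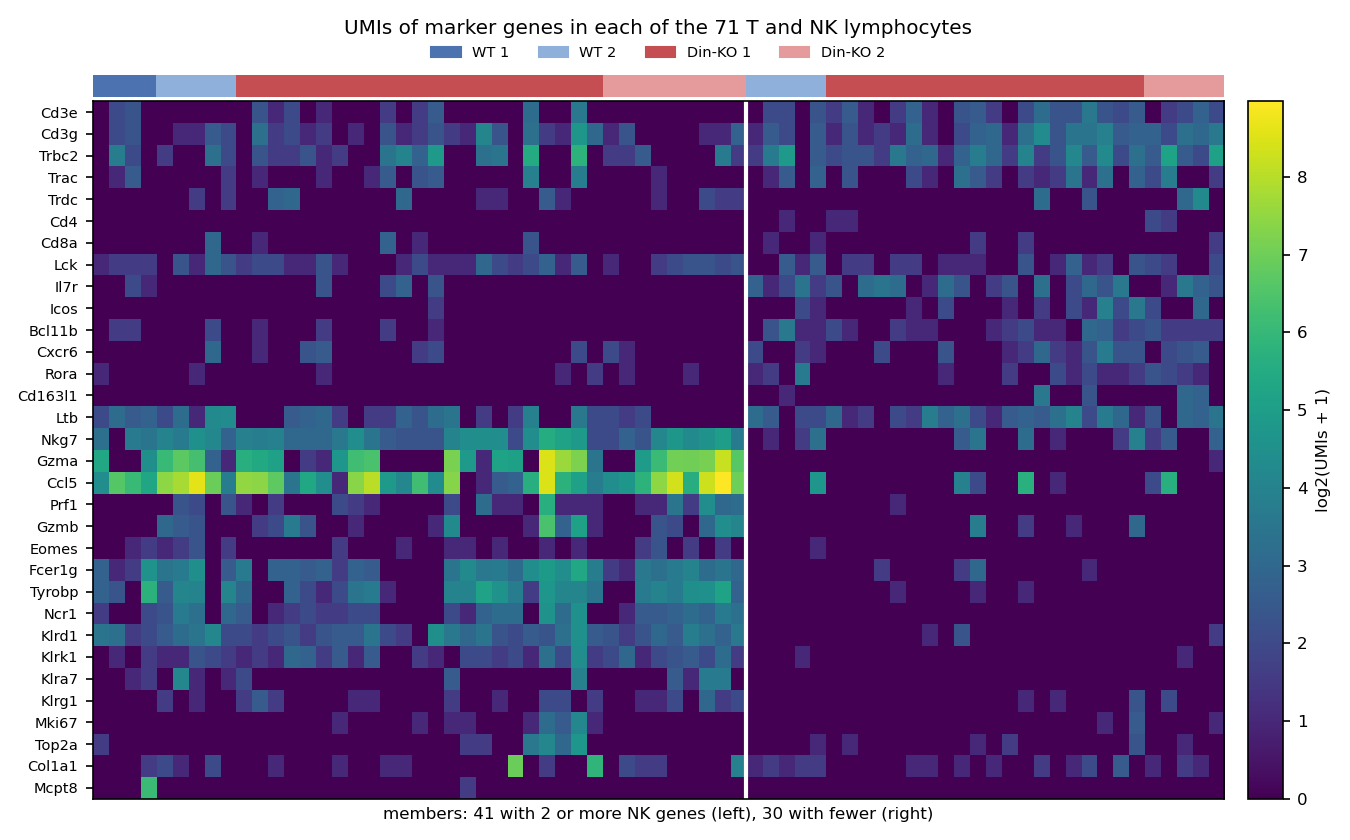
Each column is 1 of the 71 members and each row a gene, coloured by log2(UMIs + 1), with the library in the bar above, the 41 members with 2 or more NK genes on the left of the white line and the 30 others on the right. Gzma, Ccl5, Fcer1g and Tyrobp are found mostly in the left block and Il7r, Bcl11b and Icos mostly in the right, while Mcpt8 is high in 1 member of WT replicate 1.

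Cytotoxic genes went with the NK genes. Prf1, which encodes the pore protein perforin, had a UMI in 23 of 41 members with 2 or more NK genes and in 1 of 30 with fewer, and in 16 and 0 of them after each cell was thinned to 2000 UMIs. The protease Gzmb was found in 20 and 4 members, or 15 and 3 thinned. Ccl5 was found in 40 of 41 and 7 of 30 members, or 38 and 6 thinned, against 0.562% of neutrophils. Tbx21 (T-bet), the factor that drives type 1 and NK programmes, was found in 12 and 1, and the inhibitory receptor Klrg1 in 18 and 4. The signalling adaptors Fcer1g and Tyrobp were found in 35 and 32 of the 41 and in 4 and 3 of the 30. Both adaptors are also neutrophil genes, with a UMI in 100% and 98.9% of neutrophils, and the part of free RNA in these counts was not tested. The rule gene Gzma was detected in 31 and 1.

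Several other genes were more frequent in members with few NK genes, while the receptor genes Trbc1 (27 of 41 and 12 of 30) and Trdc (13 and 4) were not and Trac, a rule gene, was (12 and 19). Bcl11b, the factor that commits cells to the T lineage, was found in 7 of 41 members with 2 or more NK genes and in 23 of 30 with fewer, or in 3 and 14 after thinning. The costimulatory receptor Icos was found in 1 and 13, Cd6 in 3 and 10, and Ccr7, the homing receptor for lymph nodes, in 0 and 7. Cxcr6, a receptor that holds lymphocytes in tissues, was found in 9 and 17, and Rora, a factor of innate lymphoid and type 17 cells, in 7 and 15. Cd163l1, a gene of type 17 γδ cells, was found in 0 and 5. Lymphotoxin β (Ltb) was found in 27 of 41 and 27 of 30 members, and in 61.8% of neutrophils. The part of free RNA in its counts was not tested. The rule gene Il7r was detected in 6 and 23. The genes shown here were selected after their values were seen, among the same cells, so the counts are a description without a test.

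**Figure D3:**
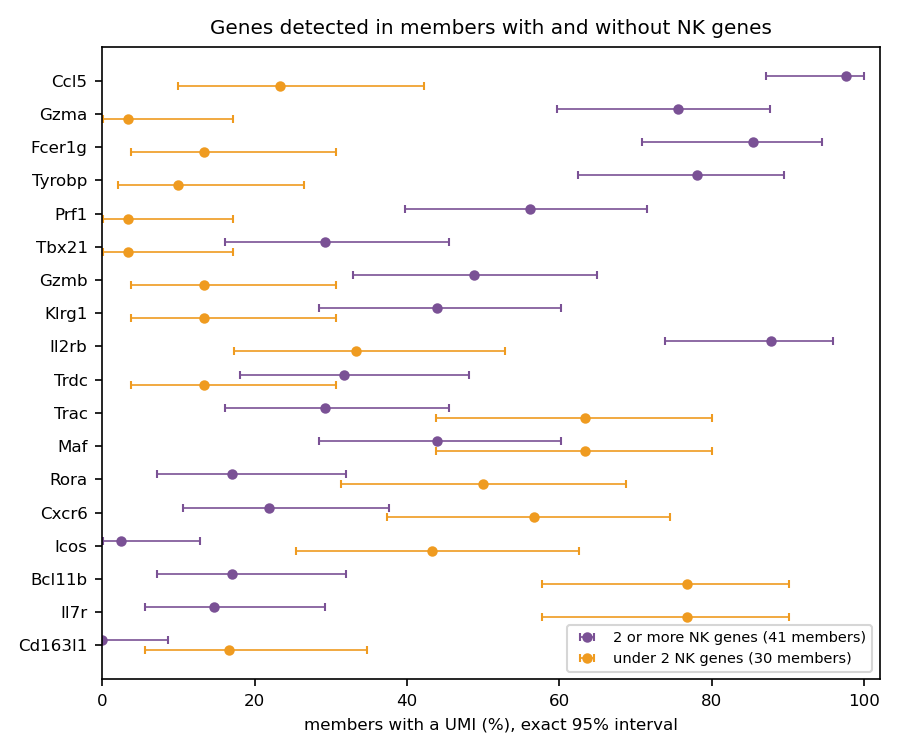
Percent of members with a UMI of each gene (x axis) in the 41 members with 2 or more of 10 NK genes and the 30 with fewer, with exact 95% binomial intervals. Prf1, Gzmb, Ccl5, Tyrobp and Fcer1g are higher in the first set, and Icos, Bcl11b, Cxcr6 and Rora in the second.

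Both αβ and γδ receptor genes were seen. A constant gene of the α or β chain was found together with CD3 in 56 members. A δ or γ constant gene (Trdc, Tcrg-C1, Tcrg-C2 or Tcrg-C4) was found with CD3 in 23, namely 0, 2, 16 and 5. Trdc, the δ constant gene, had a UMI in 17 members, 0, 2, 9 and 6 in the libraries, and Trac, the α constant gene, in 31. Members with CD3, Trac and Trdc together numbered 3. Trdc was not confined to cells with few NK genes, as 13 of the 17 had 2 or more.

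Variable segments, which are joined to the constant genes by rearrangement, were seen in 28 members and came from 20 segments. Segments of the γ locus were seen in 0, 0, 11 and 2 members and those of the δ locus in 0, 0, 3 and 3. Segments of the α locus were seen in 1, 1, 4 and 0 members and those of the β locus in 0, 2, 4 and 2. The segment seen in most members was Trgv2, with 26 UMIs in 10 of them, 8 from Din-KO replicate 1 and 2 from Din-KO replicate 2. It was also seen in 3 passing cells outside the members. The δ segments Trdv4 and Trdv2-2, each seen in 3 members, were seen in 24 and 4 such cells. The part of free RNA in these counts was not tested. No γ or δ variable segment was found in the 14 WT members. A γ segment was found in 11 of 43 members of Din-KO replicate 1 and 2 of 14 of Din-KO replicate 2. Cells of a library are not replicates of a genotype, and the 14 WT cells can barely show such a difference, so no limit is set from their count of 0. Sequences at the 3′ end rarely reach a variable segment, so most are missed.

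Coreceptors were sparse: among the 59 members with a CD3 UMI, Cd4 was detected in 5, Cd8a or Cd8b1 in 11 and none of the 3 genes in 43. Foxp3, the factor of regulatory T cells, was detected in 1 member of each Din-KO library and in no WT member. The cytokine gene Il17a was detected in 2 members and Ifng, the gene of IFN-γ, in 0, 2, 8 and 1. At these depths a missing UMI does not show that a gene was off.

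The Ly49 receptors, which bind MHC class I and are encoded by the Klra genes, were detected in some of the members with NK genes, many of which also had a CD3 UMI. Klra10 and Klra17 had 0 UMIs in members. Of the 41 members with 2 or more NK genes, 29 had a UMI of at least 1 of 8 Klra genes, 12 of them of exactly 1 and 17 of 2 or more, with 5 the most in a cell. None of the 30 other members had any. Klra4, Klra7 and Klra8 are among the genes that made this split, so for them the contrast is fixed by the choice. Klra7 was found in 2, 3, 3 and 4 members and Klra3 in 0, 2, 7 and 4, so both genotypes expressed each.

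Klra8, which encodes the activating receptor Ly49H, lies on chr6:130115226-130129898 (minus strand, GRCm38). It had 4 UMIs in WT replicate 1 and 19 in WT replicate 2, which is 197 and 272 CPM, and 0 in both Din-KO libraries. All 23 UMIs came from 2 of the 9 WT members with 2 or more NK genes, while 0 of 32 such Din-KO members had one. Klra8 is among the genes that chose these members, and cells of a library are not replicates of a genotype. A missing UMI does not show that the gene was off, so these counts set no limit on the share of cells. A floor of 3 UMIs per library lies at 9.87 CPM in Din-KO replicate 1 and 35.0 CPM in Din-KO replicate 2. Its p in the edgeR quasi-likelihood test was the smallest of all (0.000880), but its adjusted p was 0.9995. The Klra genes are near-identical copies and the family differs between mouse strains, so reads may be split among them and the values of single members are uncertain.

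Levels were then compared between Din-KO and WT with edgeR's quasi-likelihood test on UMIs summed per library over the members. Of the 1225 genes with enough counts to test, 0 were called higher (0%) and 0 lower (0%) at a Benjamini-Hochberg adjusted p of 0.05, and the smallest adjusted p was 0.9995. At an unadjusted p under 0.05 there were 28 higher (2.29%) and 14 lower (1.14%) genes, and DESeq2 called 0 as well, with 35 higher and 9 lower at the unadjusted level among 12682 genes, so these counts cannot be set beside those of edgeR. In 168 genes (13.7%) the lower Din-KO value exceeded the higher WT value, and in 207 (16.9%) the reverse held. The log2 fold change was positive in 54.5% of genes, with a median of 0.06. In counts simulated with a single dispersion of 0.113 for all genes and no filter on low counts, the test recovered 0% of 2-fold changes. It recovered 59% of 4-fold and 97% of 8-fold changes. Changes of 2-fold were thus out of reach, while real genes differ in dispersion, so the other shares need not hold for them. Klra8, Capg and Col3a1, with log2 fold changes of −7.83, 3.74 and 3.02, had an edgeR adjusted p of 0.9995. The values below are therefore descriptions of libraries in which no gene passed the test, and a list's counts leave out its members too low to test.

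Among genes with higher values in Din-KO, the 5 with the smallest p were Col3a1, AW112010, Ramp1, Capg and S100a6. AW112010, a transcript induced by interferon and inflammation, had 839 and 1272 CPM in WT and 2408 and 3161 in Din-KO, a log2 fold change of 1.43 ± 0.35 (SE). It was also higher in both Din-KO libraries in B cells (7.58 and 21.0 CPM in WT, 100 and 33.4 in Din-KO), macrophages and neutrophils. In mesenchyme cells the genotypes overlapped for it. S100a6, a calcium-binding protein of activated and memory cells, had 494 and 672 CPM in WT and 1954 and 1295 in Din-KO (1.51 ± 0.40). Capg, an actin-capping protein, had 0 and 14.3 CPM in WT, where it rested on 1 UMI, and 145 and 163 in Din-KO. Ramp1, a subunit of the receptor for the neuropeptide CGRP, had 0 and 57.2 CPM in WT and 303 and 245 in Din-KO (2.73 ± 0.71), but its log2 fold change turned to −0.60 when 2 of the 10 markers sufficed for a member. The genotypes did not overlap in any of these 4, but they were picked by smallest p. Over all genes tested Din-KO was apart and higher in 13.7%. Col3a1, a fibroblast collagen and not a lymphocyte gene, is itself among the mesenchyme markers summed above. It had 49.4, 28.6, 293 and 245 CPM (3.02 ± 0.61), and its log2 fold change turned to −1.11 with 2 markers. The part of mesenchyme RNA in this value was not tested.

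Among genes with lower values in Din-KO, the 5 with the smallest p were Klra8, Fam107b, S1pr1, Gramd1b and Cab39. S1pr1, the sphingosine phosphate receptor by which lymphocytes leave tissues and return to blood, had 197 and 272 CPM in WT and 59.2 and 35.0 in Din-KO, a log2 fold change of −2.19 ± 0.59 (SE). These levels rest on 4, 19, 18 and 3 UMIs. Fam107b had 444 and 343 CPM in WT and 95.4 and 128 in Din-KO (−1.74 ± 0.44), Gramd1b, a sterol carrier, 296, 172, 19.7 and 46.7 (−2.81 ± 0.80), and Cab39, a scaffold of the kinase LKB1, 197, 243, 49.3 and 70.0 (−1.91 ± 0.58). WT and Din-KO did not overlap in these genes either, with an edgeR adjusted p of 0.9995 for each, but they too were picked by smallest p. Over all genes tested Din-KO was apart and lower in 16.9%.

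Genes of naive and recirculating lymphocytes overlapped between genotypes as a sum, with 1629 and 2116 CPM in WT and 1049 and 1785 in Din-KO over the list. Of 13 such genes, 12 lie outside the rule and 6 could be tested, with 1 positive and a median log2 fold change of −0.61, against 0.06 over all genes. Without members carrying 3 or more markers of another type 3 genes could be tested and the median was 0.29. The quiescence factor Foxp1 had 345.5, 286, 148 and 187 CPM (−0.84 ± 0.42). Klf2, which drives S1pr1, had 395, 400.3, 174 and 432, so the genotypes overlapped. The exception was Igfbp4, a binder of insulin-like growth factors, with 0, 57.2, 155 and 595 CPM, whose log2 fold change of 3.08 turned to −0.31 with 2 markers. Ltb had 1086 and 972 CPM in WT and 638 and 408 in Din-KO (−0.88 ± 0.40). Over the settings tried, the log2 fold change ran from −1.23 to −0.012 for Ltb and from −1.14 to −0.005 for Foxp1.

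**Figure D4:**
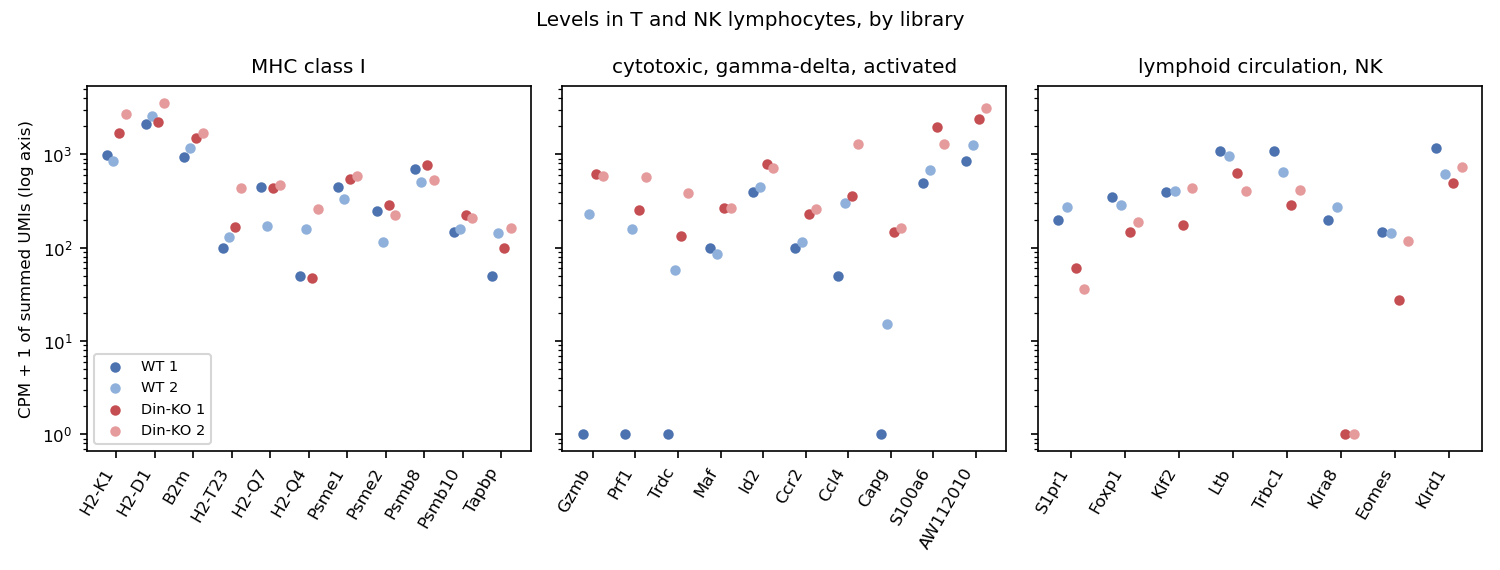
CPM + 1 of the summed members (y axis, log scale) for named genes in 3 panels, with 1 point for each of the 4 libraries. For AW112010, S100a6 and H2-K1 both Din-KO points are higher than both WT points and for S1pr1 and Ltb lower, and no gene passed the adjusted threshold.

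Receptor and cytotoxic genes showed no common direction. Of the T-cell receptor and CD3 genes outside the rule, Trbc1 had 1086 and 643 CPM in WT and 286 and 420 in Din-KO (−1.19 ± 0.46), and Trdc 0, 57.2, 132 and 385 (2.56 ± 0.97). Over the settings tried, the log2 fold change ran from −1.46 to −0.23 for Trbc1 and from 0.09 to 8.07 for Trdc. Of 13 NK receptor and regulator genes tested, 6 were positive, with a median of −0.15. Tyrobp had 3110, 743, 711 and 1435 CPM, Fcer1g 1579, 686, 793 and 875. In WT replicate 1, 53 of 63 Tyrobp UMIs and 23 of 32 Fcer1g UMIs came from the member with Mcpt8. Ncr1, Il2rb and Klrd1 overlapped as given above. Of 6 cytotoxic granule genes tested, 4 were positive, with a median of 0.17. Gzmb had 0, 229, 622 and 583 CPM (2.01 ± 0.76) and Prf1 0, 157, 250 and 572 (1.90 ± 0.84), both lowest in WT replicate 1 with its 4 cells. Over the settings tried, the log2 fold change ran from 1.43 to 9.38 for Gzmb and from 1.20 to 8.78 for Prf1. The 9.38 of Gzmb came without WT replicate 2. The proteoglycan Srgn, which packs granules, had 1234, 486, 618 and 875 CPM and the cathepsin Ctsw 691, 229, 329 and 385, with overlap of the genotypes in both.

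T-cell receptor signalling genes had 3 positive of 9 tested and a median of −0.04, with Txk at 642, 400.3, 188 and 315 CPM and Skap1 at 592, 343, 217 and 303. Lymphocyte transcription factors had 4 positive of 12 and a median of −0.19. Id2, needed by NK cells and innate lymphoid cells, had 395, 443, 789 and 723 CPM (0.90 ± 0.40), while Ets1 had 296, 686, 253 and 653, higher in replicate 2 of both genotypes. Maf, a factor of type 17 and regulatory cells, had 98.7, 85.8, 266 and 268 CPM (1.63 ± 0.49). Regulatory T-cell genes had 3 of 3 tested positive, namely Ikzf2, Tnfrsf18 and Capg, and their median was 1.07. Tnfrsf18 (GITR) had 49.4, 85.8, 145 and 163 CPM (1.07 ± 0.61). Chemokine genes had 6 positive of 8 and a median of 0.32, with Ccl4 at 49.4, 300.2, 359 and 1295 CPM (1.99 ± 0.86) and the monocyte and lymphocyte receptor Ccr2 at 98.7, 114, 230 and 257 (1.19 ± 0.48).

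Din itself had 0, 3, 2 and 1 UMIs in the members, so its level cannot be compared, and as its 3′ tag may lie outside the deleted part the count checks nothing about the allele.

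MHC class I genes lay on the higher side in Din-KO members, although none passed the test. MHC class I presents peptides to CD8 T cells and is read by NK receptors, and with the immunoproteasome it is induced by interferons. Of 18 genes 11 could be tested, and all 11 had a positive log2 fold change, beside 54.5% of all genes. Their median was 0.65, and in 5 of the 11 the genotypes did not overlap, with Din-KO higher, beside 13.7% of all genes. H2-K1, a classical heavy chain, had 987 and 858 CPM in WT and 1677 and 2683 in Din-KO (1.32 ± 0.37, unadjusted p = 0.0104, edgeR adjusted p = 0.9995). B2m, the light chain, had 938 and 1158 CPM in WT and 1483 and 1703 in Din-KO (0.65 ± 0.34), and Psme1, an activator of the proteasome, 444, 329, 549 and 583 (0.67 ± 0.42). H2-D1, the most abundant of the list in every library, had 2122, 2559, 2210 and 3593 CPM and overlapped. H2 genes are close copies of each other, so single heavy chains are uncertain.

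The promoters of this list are shown because interferon-responsive factors bind repeats of GAAA. Windows of 250 bases before to 50 after the gene start, from RefSeq on GRCm38.p6, were searched on both strands for a GAAA followed, after any 2 bases, by another GAAA, and for GAANNGAAA, and the 2 may overlap. At least 1 of these was found in 8 of 13 promoters (61.5%) of the 11 tested genes, which is 7 genes, and in 10.4% of all 32851 promoters. The matches below are in capitals with the bases around them, on the strand where the letters read as written. They lie at chr2:122147538-122147567 (plus strand) for B2m, chr14:55578493-55578522 (minus) for Psme1, chr17:34000419-34000447 (plus) for H2-K1, chr17:35262934-35262962 (minus) for H2-D1, chr17:35379454-35379482 (minus) for H2-Q4, chr17:35439032-35439060 (minus) for H2-Q7 and chr17:36032806-36032835 (plus) for H2-T23.
B2m: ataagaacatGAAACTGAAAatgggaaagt
Psme1: agcgggaaggGAAAGCGAAAgcacagctcg
H2-T23: gtgtctttatGAAAGAGAAAgcagtaggat
H2-K1: gttaggtgcaGAAGTGAAActgtggagat
H2-D1: gttaggtgcaGAAGTGAAActgaggagat
H2-Q4: gttaggagcaGAAGTGAAActggggagat
H2-Q7: gttaggagcaGAAGTGAAActggggagat
The heavy chain genes H2-K1, H2-D1, H2-Q4 and H2-Q7 carry the same 9 letters, with H2-Q4 and H2-Q7 alike over all the bases shown. A match of letters is a description, not a binding site.

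Summed over all 18 genes, MHC class I and antigen processing RNA was 6417 and 6762 CPM in WT and 8598 and 11490 in Din-KO members, a log2 ratio of mean levels of 0.61. Within members with 2 or more NK genes it was 6417 and 8151 CPM in WT and 7915 and 9891 in Din-KO, and the genotypes overlapped. Within the others it was 5282 CPM in WT replicate 2, the single WT library with such members, and 9686 and 14951 in Din-KO. Without the 14 members that carried 3 or more markers of another type it was 6954 and 7419 CPM in WT and 10309 and 12781 in Din-KO, so the genotypes were also apart without them. Over members with Xist and no Y-linked UMI, 8 genes of the list could be tested, all 8 were positive and the median was 0.60.

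Of 52 interferon-induced genes 6 could be tested, 5 were positive and the median was 0.44. Ifi27l2a had 49.4 and 372 CPM in WT and 1053 and 548 in Din-KO (1.71 ± 0.71) and was detected in 1, 2, 24 and 6 members. In neutrophils of the same libraries it was detected in 3 of 38, 11 of 72, 21 of 26 and 31 of 42, so it was also more frequent in Din-KO cells of that type. Shisa5 had 345.5, 515, 510 and 432 CPM, with overlap, and Sp100 had 345.5 and 314.5 CPM in WT and the lower values of 233 and 280.0 in Din-KO. Among the 6 genes the genotypes were apart in 1 with Din-KO higher and in 1 with Din-KO lower. Over all 1225 tested genes the same held for 13.7% and 16.9%. The 52 genes summed to 1876 and 2444 CPM in WT and 4306 and 3126 in Din-KO, a log2 ratio of 0.78. The 17 interferon-induced GTPases, of which 0 could be tested, summed to 197, 543, 651 and 653 CPM.

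**Figure D5:**
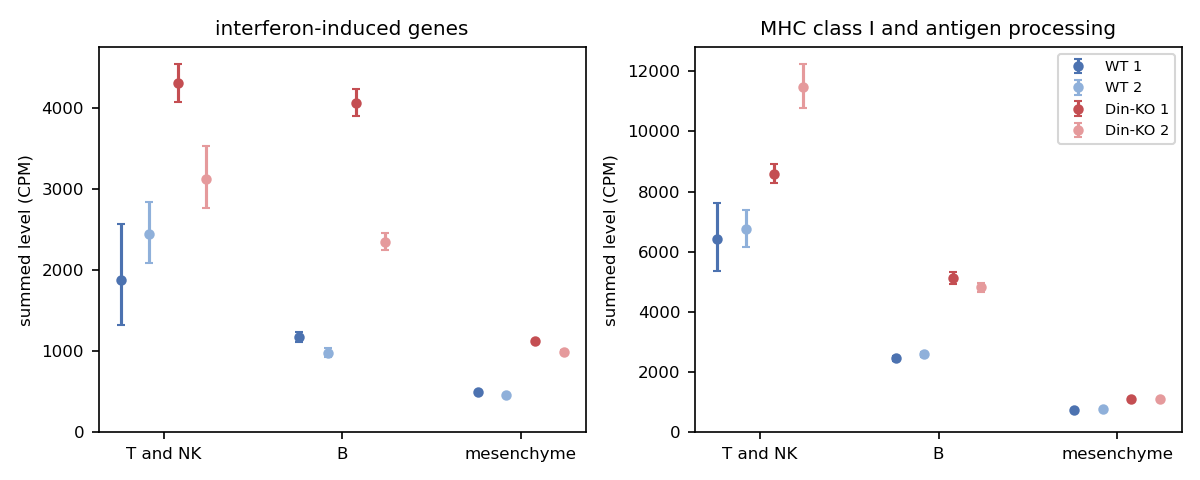
Summed CPM of MHC class I and interferon-induced genes (y axis) in T and NK lymphocytes, B cells and mesenchyme cells of each library, with exact Poisson 95% intervals that cover counting error only. Both lists are higher in both Din-KO libraries than in both WT libraries in all 3 classes.

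The same lists were higher in Din-KO in other cells. Interferon-induced genes summed to 1175 and 981 CPM in WT B cells and 4062 and 2350 in Din-KO B cells (log2 ratio 1.57), and to 495 and 466 in WT and 1121 and 993 in Din-KO mesenchyme cells (1.14). MHC class I RNA summed to 2463 and 2599 CPM in WT and 5124 and 4819 in Din-KO B cells (0.97), and to 731, 772, 1122 and 1112 CPM in mesenchyme (0.57). All these classes come from the same 4 libraries. The difference in the Din-KO effect was tested per gene in edgeR with the library as a block. Against B cells 0 genes had a higher effect (0%) and 1 had a lower effect (0.0816%) in T and NK lymphocytes, and against mesenchyme cells 0 differed in either direction. At an unadjusted p under 0.05 the numbers were 83 genes against B cells and 59 against mesenchyme cells. The 1 gene was Apoe, a lipid carrier and macrophage gene. It had 395, 157, 105 and 58.3 CPM in the members and 657, 692, 3280 and 1276 CPM in B cells, and its log2 difference between the effects was −3.22 (adjusted p = 0.0399, edgeR). The part of free RNA in its counts was not tested in either class. The call was lost with relative log expression size factors (smallest adjusted p = 0.0708, edgeR) and without WT replicate 1 (0.531).

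Proliferation genes were concentrated in few cells. Only 6 members had 3 or more cell cycle genes, all from Din-KO replicate 1. All 6 had Nkg7 and CD3 UMIs, 5 had 2 or more NK genes, 2 carried 3 or more markers of another type, and their median depth was 13642 UMIs. These 6 cells held 1367 of the 1759 UMIs of the proliferation list in that library. The list summed to 2419, 1973, 5786 and 2473 CPM, and to 1922 in Din-KO replicate 1 without them. Stress and immediate early genes followed replicate number instead, with 3060 and 10135 CPM in WT and 5000 and 10463 in Din-KO. Of these, Junb had 296, 3073, 865 and 3044 CPM, higher in replicate 2 of both genotypes.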

How the data were processed

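Single cells of mouse incisors were sequenced with 10x Genomics 3′ chemistry, which counts UMIs near transcript ends. The deposited matrices hold UMI counts per gene and barcode made by the authors with Cell Ranger against mm10, per the submitters' processing notes. From these counts cells were filtered, members selected and UMIs summed per library, in Python 3.11.15 with SciPy 1.17.1. The members and gene lists were chosen with earlier results of these data known. Summed counts were tested with edgeR 4.0.16 (R 4.3.3; TMM, filterByExpr, quasi-likelihood test, Benjamini-Hochberg at 0.05), with DESeq2 1.42.0 as an alternative. CPM are counts scaled to 1000000 UMIs of the summed members, and 3′ tags were not scaled by length. Named genes were those of the rule, the 20 with the largest ratio of members to other cells at 100 CPM or more, the 5 of smallest p in each direction, and the most abundant of each list; others were chosen after their values were seen. Mesenchyme cells had Col1a1, Col1a2 and Col3a1 with at least 10 UMIs together and no Ptprc, Epcam or Pecam1. Members have 14 WT and 57 Din-KO cells, which limits precision. The scripts were tested on simulated data. Some genes and 1 list are not reported here.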

Additional observations from a re-analysis of the deposited data

Results flagged for a closer look

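The Din-KO effect on Apoe differed between T and NK lymphocytes and B cells by −3.22 on the log2 scale (adjusted p = 0.0399, edgeR with the library as a block), with members lower and B cells higher in both Din-KO libraries than in both WT libraries. Apoe is a macrophage gene, and the part of free RNA in its counts was not tested. The call was lost with relative log expression size factors, and without WT replicate 1 no gene was called in this comparison.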

How the results depend on the processing

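The T and NK share was higher in Din-KO than WT under every denominator and threshold tried, by 0.511 to 1.02 percentage points over all cells and by 0.379 to 0.918 without 1 replicate at a time. Counts of genes called for Din-KO against WT were 0, but 7 without a filter on low counts (Ptn and Hist1h1b higher; Klra8, Cxcl10, Cpa3, Mcpt8 and Prss34 lower), and 0 to 12 without 1 replicate at a time, with 12 when Din-KO replicate 2 was left out. Against B cells 1 gene was called, 0 with relative log expression factors, and 0 to 17 without 1 replicate (0 without WT replicate 1, 17 without Din-KO replicate 2). Against mesenchyme cells the range was 0 to 7 (7 without WT replicate 1). The share of members with a CD3 UMI was 83.1%, 94.7% with at least 4 of the 10 markers and 70.4% at 2000 UMIs per cell, where CD3 with a γδ constant gene was 12.7% and with Trac 23.9%. With at least 2 of the markers, log2 fold changes turned to −1.11 for Col3a1, −0.60 for Ramp1, −0.31 for Igfbp4, −4.22 for Col1a1, −4.74 for Col1a2 and −3.58 for Sparc; the cause was not tested. A fit with the replicate number as a block called 0 genes (35 higher and 18 lower at an unadjusted p under 0.05); the labels do not state what a number pairs. List medians ran from 0.41 to 0.93 for MHC class I and from 0.17 to 1.25 for interferon-induced genes, positive in 15 of 15 settings, and from −1.14 to 0.29 for naive genes. Settings that allowed Pecam1, left out members with 3 markers of another type or used 500 or 250 detected genes were chosen after seeing the data. Members without Col1a1 and Col1a2 could not be fitted, since WT replicate 2 then has none. Depth is low, with 20260 UMIs in the 4 members of WT replicate 1. Of these members, the 1 with Mcpt8 held 69 of the 71 Mcpt8 UMIs found over all members. It also held 95 of the 100 UMIs of 8 mast and basophil markers, which include Mcpt8 and Cpa3. The Mcpt8 call without a filter on low counts therefore rests almost wholly on this cell. Its part in the Cpa3 and Prss34 calls was not tested.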
